A study of Mus musculus with 12 samples.

Results

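Homing receptors and adhesion molecules decide where a blood cell lodges and what it holds on to. The 9 genes described here encode 5 chemokine receptors (Ccr2, Ccr7, Ccr9, Cxcr4 and Cxcr5) and 4 adhesion molecules (Cd44, Itga4, Itgal and Pecam1). They were taken by gene symbol from the 19938 genes that the arrays name without ambiguity, and each has 1 transcript cluster, the unit in which this array reports a gene. Their expression was compared in pro-B cells purified from the bone marrow of mice 1 month old. The 12 arrays form 3 groups of 4, namely wild type (WT), Pax5+/- (heterozygous for Pax5, the transcription factor that commits cells to the B lineage), and Cd72+/-;Pax5+/- (heterozygous for that gene and for Cd72, an inhibitory co-receptor of B cells, here called the double heterozygotes). The sources used here do not say how the alleles were made or how the cells were sorted. Nor do they tie each array to an animal, so a p-value here reflects variation among these arrays alone, some of which may be technical. All groups carry the tissue label of bone marrow pro-B cells, and the cell-type label of both mutant groups calls them preleukemic precursor B-cells.

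Chemokine receptors are seven-span membrane proteins coupled to inhibitory G proteins, and a gradient of their ligand steers the cell that carries them. Cxcr4 binds Cxcl12 from marrow stroma and retains B cell precursors in the marrow, while Ccr7 and Cxcr5 guide mature lymphocytes into the T cell zones and follicles of lymphoid organs. Integrins such as those built on Itga4 and Itgal pair an alpha with a beta chain and hold the cell on Vcam1, fibronectin and the Icam proteins, and Cd44 binds the matrix sugar hyaluronan.

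Cd44 moved in opposite directions, as it fell 4.2-fold in Pax5+/- and rose 1.71-fold in the double heterozygotes, each against WT. Ccr2 fell 11.9-fold in the double heterozygotes and was not called in Pax5+/-. Cxcr5 was called lower in both mutant groups, Ccr7 was lower in Pax5+/-, and Ccr9 was highest there. Itgal was 1.24-fold lower in the double heterozygotes, and Cxcr4, Itga4 and Pecam1 were called in no comparison. With the most alike arrays of each group averaged in pairs, only the calls of Cd44 and Ccr2 held. Comparisons with the double heterozygotes also carry a sex-linked difference that cannot be told apart from genotype. The fold values describe signals, some of them low. The values and limits of each gene follow.

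Upstream sequence was at hand for 5 of the genes, from RefSeq on assembly GRCm38.p6. The 250 bases before the annotated start are shown for the gene with opposite changes (Cd44), for a gene highest in Pax5+/- (Ccr9), and for one that was called nowhere (Cxcr4), each 5′ to 3′ on the strand of the gene. Capitals mark the letters GGAA, the core recognised by Ets-family transcription factors, on either strand (read as TTCC on the other).
Cd44 at chr2:102901666-102901915, minus strand: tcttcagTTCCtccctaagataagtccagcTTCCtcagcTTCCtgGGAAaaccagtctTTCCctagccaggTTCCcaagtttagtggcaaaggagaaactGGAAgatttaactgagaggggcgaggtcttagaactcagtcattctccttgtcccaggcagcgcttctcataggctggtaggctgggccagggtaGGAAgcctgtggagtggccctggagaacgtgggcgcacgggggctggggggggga
Ccr9 at chr9:123766961-123767210, plus strand: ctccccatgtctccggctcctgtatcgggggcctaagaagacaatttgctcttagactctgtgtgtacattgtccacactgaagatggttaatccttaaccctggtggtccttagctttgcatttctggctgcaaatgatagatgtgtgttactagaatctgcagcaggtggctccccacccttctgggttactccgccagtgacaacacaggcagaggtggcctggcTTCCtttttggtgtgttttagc
Cxcr4 at chr1:128592300-128592549, minus strand: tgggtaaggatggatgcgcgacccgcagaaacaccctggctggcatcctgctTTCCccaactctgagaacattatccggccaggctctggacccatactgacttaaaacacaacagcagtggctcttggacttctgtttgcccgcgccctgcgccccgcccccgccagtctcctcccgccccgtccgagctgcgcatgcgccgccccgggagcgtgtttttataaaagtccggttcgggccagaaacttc
The Cd44 window holds 8 matches to GGAA and the other windows 1 each, and 93.4% of 32851 promoter windows of this length hold at least 1. Searched on both strands in the same way, the E-box CANNTG has 2 matches in the Ccr9 window and 0 in the others (66.2% of all windows hold it). The GC box GGGCGG has 3 matches in the Cxcr4 window and 0 in the others (32.7% of all windows). The TATA box TATAAA has 2 matches in the Cxcr4 window, which overlap each other, and 0 in the others (12.4% of all windows). These matches describe the letters and were not tested against expression.

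Libraries were checked before the genes were compared. The deposited values are log2 signals, and array medians lay between 6.91 and 7.005. Pax5 was lower in Pax5+/- than in WT (10.97 ± 0.26 against 11.57 ± 0.148, SD, n = 4, limma adjusted p = 0.0051) and at 11.2 ± 0.0835 in the double heterozygotes (adjusted p = 0.0781 against WT). Cd72 was at 8.9 ± 0.51 in WT, 10.19 ± 0.111 in Pax5+/- and 7.51 ± 0.135 in the double heterozygotes. Within WT and within Pax5+/-, replicates 1 and 3 resembled each other most closely and so did replicates 2 and 4. The labels do not say whether such a pair repeats a sample, so the calls are also given with the closest pairs averaged. In the double heterozygotes this joined replicates 1 and 2 and replicates 3 and 4, which stood out little. Their SDs of the difference were 0.117 and 0.125, against 0.128 to 0.183 for the other pairs there. Averaging leaves 2 values in each group, so fewer changes of a given size can pass. Xist, the RNA of the inactive X chromosome, read 11.75 to 11.9 in the double heterozygotes and 5.00 to 5.52 on the other arrays, and the Y-linked Uty read 4.88 to 5.19 against 8.85 to 9.74. Genotype and this sex-linked difference cannot be told apart in any comparison with the double heterozygotes.

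**Figure D1:**
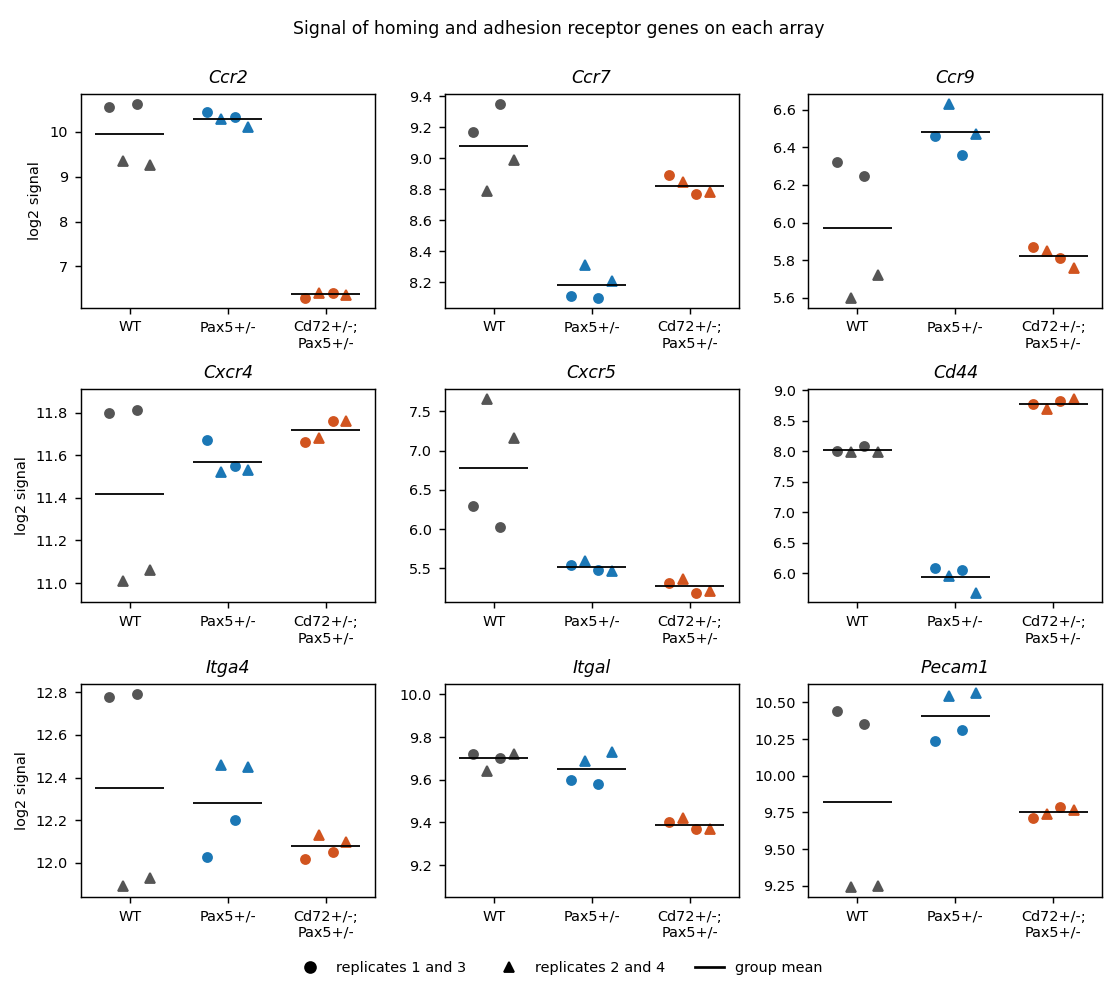
Log2 signal of the 9 genes on each of the 12 arrays, with circles for replicates 1 and 3, triangles for replicates 2 and 4, and a line for the mean of the 4 arrays of a group; each panel has its own vertical range of at least 1 log2 unit. The Cd44 groups stand apart on every array, Ccr2 lies between 6.3 and 6.42 in Cd72+/-;Pax5+/- and above 9 elsewhere, and the WT arrays separate into circles and triangles for Ccr2, Ccr7, Ccr9, Cxcr4, Cxcr5, Itga4 and Pecam1.

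Ccr2 is the receptor for Ccl2 and related chemokines and is best known for bringing monocytes out of the marrow. WT replicates 1 to 4 read 10.56, 9.36, 10.62 and 9.27, and Pax5+/- replicates 1 to 4 read 10.45, 10.28, 10.33 and 10.1. In the double heterozygotes the 4 arrays read 6.3, 6.42, 6.42 and 6.36. All arrays of the double heterozygotes were thus below all others, while WT and Pax5+/- overlapped. Ccr2 fell by 3.58 on the log2 scale in the double heterozygotes against WT (SE 0.266, 11.9-fold, limma adjusted p = 2.41e-06) and by 3.92 against Pax5+/- (15.1-fold, adjusted p = 8.38e-07). In Pax5+/- against WT the difference was 0.34, with a 95% interval of -0.24 to 0.91 (adjusted p = 0.596). That difference ran from 0.11 to 0.56 when each array was left out, the lowest without WT replicate 4 and the highest without WT replicate 3. It was 0.87 (adjusted p = 9.6e-06) with replicates 2 and 4 of WT and Pax5+/- only and -0.2 with replicates 1 and 3 only. Both falls kept their call with the closest pairs averaged, at adjusted p = 0.0279 and 0.0201. In the double heterozygotes Ccr2 read below the array medians, which were 6.91 to 6.97 there. Whether it was above background on those arrays was not tested, so the 11.9-fold and 15.1-fold values describe signals.

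Among the measured neighbours of Ccr2 no fall was called, though most of them read low in WT too. From Ccr9 to Ccr2 along chromosome 9 the annotation places Fyco1, Cxcr6, Xcr1, Ccr1, Ccr1l1 and Ccr3, most of them chemokine receptor genes too. All 6 were measured and limma called 0 of them in each of the 3 comparisons, and at an unadjusted p under 0.05 the counts were 0, 0 and 1. Among all clusters the shares called were 7.47%, 7.78% and 9.79%. Ccr3, next to Ccr2, read 5.58 ± 0.0627 in WT and 5.56 ± 0.0881 in the double heterozygotes (SD, n = 4). In WT, Cxcr6, Xcr1, Ccr1 and Ccr1l1 averaged 5.52, 5.97, 4.76 and 4.97. These genes and Ccr3 lay below the median of every array (6.91 to 7.005) and so had little room to fall. Whether they were above background was not tested. Fyco1 averaged 8.54 in WT and 8.79 in the double heterozygotes.

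The mean of the monocyte and macrophage markers was not lower in the double heterozygotes. Of 10 listed, 8 were measured, and their mean signal per array was 6.5 to 6.72 in WT, 6.51 to 6.58 in Pax5+/- and 6.69 to 6.75 in the double heterozygotes. The lysosomal protein gene Cd68 was the 1 marker called, and it rose by 0.36 against WT (adjusted p = 0.00884) and by 0.48 against Pax5+/- (adjusted p = 0.000935), and neither call held with the closest pairs averaged. Over all clusters, 7.78% were called against WT and 9.79% against Pax5+/-. The growth factor receptor gene Csf1r, a defining marker, read 6.49 to 6.67 over all 12 arrays, and Adgre1 read 5.11 to 5.27. Both lay below the median of every array (6.91 to 7.005), in WT too, and so had little room to fall. What monocytes add to the Ccr2 signal was not tested. The genes whose values ran closest to Ccr2 over the 12 arrays were the Y-linked Uty (Pearson r = 0.992) and Kdm5d (r = 0.991), out of 19937 genes searched. These correlations describe 12 arrays that share their groups and the pairs within WT, and Uty and Kdm5d mark the sex-linked difference given above.

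Ccr7 binds Ccl19 and Ccl21 and draws lymphocytes and dendritic cells into lymph nodes. WT replicates 1 to 4 read 9.17, 8.79, 9.35 and 8.99. Pax5+/- replicates read 8.11, 8.31, 8.1 and 8.21, and the double heterozygotes 8.89, 8.85, 8.77 and 8.78. The Pax5+/- arrays were below every other array, and WT overlapped with the double heterozygotes. Ccr7 fell by 0.89 in Pax5+/- against WT (SE 0.0989, 1.86-fold, limma adjusted p = 7.53e-05) and was higher by 0.64 in the double heterozygotes than in Pax5+/- (1.56-fold, adjusted p = 0.000935). The change in the double heterozygotes against WT was -0.25 (95% interval -0.47 to -0.04, adjusted p = 0.169), and it reached -0.35 (adjusted p = 0.0251) without WT replicate 2. Both calls of Ccr7 ended with the closest pairs averaged, at adjusted p = 0.0682 and 0.133. The kinase gene Prkcb (r = 0.98) and the growth factor gene Pgf (r = 0.975) ran closest to Ccr7 over the 12 arrays. Prkcb averaged 11.25 in WT, 10.09 in Pax5+/- and 10.88 in the double heterozygotes.

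Ccr9, the receptor for Ccl25, guides cells to the thymus and small intestine and is also found on plasmacytoid dendritic cells. The WT arrays read 6.32, 5.6, 6.25 and 5.72 in replicates 1 to 4. Pax5+/- read 6.46, 6.63, 6.36 and 6.47, and the double heterozygotes 5.87, 5.85, 5.81 and 5.76. Pax5+/- was above the other arrays in all 4 replicates, narrowly over WT replicate 1. The rise of 0.51 in Pax5+/- against WT (SE 0.139, 1.42-fold) passed at a limma adjusted p of 0.0443, and Ccr9 was lower by 0.66 in the double heterozygotes than in Pax5+/- (1.58-fold, adjusted p = 0.00863). Against WT the double heterozygotes differed by -0.15 (95% interval -0.45 to 0.15, adjusted p = 0.651). On every array Ccr9 read below the array median (6.91 to 7.005). WT replicates 2 and 4 and the double heterozygotes lay near the lower quartile of all clusters, which was 5.57 to 5.62 on those arrays. Whether Ccr9 was above background was not tested, so the folds describe signals.

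The rise of Ccr9 in Pax5+/- ended as a call in 15 of 24 alternative settings, among them the omission of any array other than WT replicates 1 and 3 (adjusted p from 0.0597 to 0.131 over those 10 omissions). It was 0.89 with replicates 2 and 4 of WT and Pax5+/- only and 0.12 with replicates 1 and 3 only (adjusted p = 0.391). Neither call of Ccr9 held with the closest pairs averaged, at adjusted p = 0.575 and 0.306. Markers of plasmacytoid dendritic cells, 7 of 9 measured, had means of 8.1 to 8.25 in WT, 7.86 to 8.02 in Pax5+/- and 8.1 to 8.16 in the double heterozygotes. Within this list Spib, a transcription factor gene, fell by 1.27 in Pax5+/- (adjusted p = 0.000183), Bst2 fell by 0.49 (adjusted p = 0.00856), and Cox6a2 rose by 0.55 (adjusted p = 0.000466). All 3 calls ended when the closest pairs were averaged. Siglech, a defining surface marker of these cells, read 6.05 to 6.34 over the 12 arrays. That is below the median of every array (6.91 to 7.005), so Siglech too had little room to fall. What such cells add to the Ccr9 signal was not tested. The genes closest to Ccr9 were Mxd4, a Myc-network repressor gene (r = 0.987), and Dhrs3, a retinaldehyde reductase gene (r = 0.984).

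Cxcr4 had group means of 11.42 ± 0.445 in WT, 11.57 ± 0.0695 in Pax5+/- and 11.72 ± 0.0526 in the double heterozygotes (SD, n = 4). The WT arrays read 11.8, 11.01, 11.81 and 11.06, so replicates 1 and 3 were above every mutant array and replicates 2 and 4 were below every mutant array. Pax5+/- read 11.67, 11.52, 11.55 and 11.53, and the double heterozygotes 11.66, 11.68, 11.76 and 11.76. The differences did not pass in limma: 0.15 in Pax5+/- against WT (95% interval -0.2 to 0.5, adjusted p = 0.739), 0.3 in the double heterozygotes against WT (-0.06 to 0.65, adjusted p = 0.359), and 0.15 between the mutants (-0.2 to 0.5, adjusted p = 0.676). Intervals of this width include changes of up to 1.57-fold, so the test does not show that Cxcr4 was equal in the groups.

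Cxcr5 binds Cxcl13 and leads mature B cells into follicles. It was the 1 member called lower than WT in both mutant groups. WT replicates 1 to 4 read 6.3, 7.66, 6.02 and 7.16, Pax5+/- read 5.54, 5.59, 5.48 and 5.47, and the double heterozygotes read 5.31, 5.37, 5.19 and 5.21. Every WT array was above every mutant array, with WT replicates 2 and 4 highest, and every double heterozygote array was below every Pax5+/- array. The fall was 1.26 in Pax5+/- (SE 0.27, 2.4-fold, limma adjusted p = 0.0107) and 1.52 in the double heterozygotes (2.86-fold, adjusted p = 0.00342). Both comparisons use the same WT arrays. The size depended on which of these were kept: with replicates 1 and 3 of WT and Pax5+/- only, the changes were -0.65 and -0.89, and with replicates 2 and 4 only they were -1.88 and -2.14. On each mutant array Cxcr5 read below the lower quartile of all clusters, which was 5.57 to 5.64 on these arrays. Whether it was above background there was not tested, so the folds describe signals, and the order of the mutants carries the same limit.

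Between the mutants Cxcr5 differed by -0.25 (95% interval -0.84 to 0.34, adjusted p = 0.668; exact two-sided permutation p = 0.0286, the smallest that 4 arrays against 4 can give). The shared spread comes largely from the WT arrays, and with only the mutant groups in the fit that difference passed at adjusted p = 0.0135. The fall in Pax5+/- did not pass when the fit held only the compared groups (adjusted p = 0.062), and with the closest pairs averaged neither fall did (adjusted p = 0.371 and 0.249). Lrrc32 (r = 0.975) and Myh10, a non-muscle myosin gene (r = 0.972), ran closest to Cxcr5. Myh10 averaged 10.72 in WT, 8.63 in Pax5+/- and 8.39 in the double heterozygotes.

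Markers of immature and mature B cells were checked beside Cxcr5 and Ccr7, which such cells carry. Their mean over 9 measured of 10 listed genes was 6.25 to 6.37 in WT, 6.23 to 6.37 in Pax5+/- and 6.63 to 6.71 in the double heterozygotes. In the double heterozygotes against WT, Cd74, which escorts class II molecules, rose by 1.80 (adjusted p = 1.74e-06), the class II gene H2-Aa by 0.74 (adjusted p = 2.19e-05) and the inhibitory receptor gene Cd22 by 0.86 (adjusted p = 1.16e-06). The other 6 measured genes were not called in that comparison, with changes from -0.34 to 0.22, so the higher mean does not describe the whole list. Of all clusters, 7.78% were called there. H2-Aa read 5.01 to 5.15 in WT, below the lower quartile of all clusters, and whether it was above background was not tested. Ms4a1, which encodes CD20, a defining protein of mature B cells, read 4.83 to 5.1 over all 12 arrays.

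Cd44, the hyaluronan receptor of haematopoietic cells, gave the clearest separation of the 3 groups. WT replicates 1 to 4 read 8.0, 7.99, 8.08 and 7.99. Pax5+/- read 6.09, 5.96, 6.05 and 5.68, and the double heterozygotes read 8.77, 8.69, 8.82 and 8.86. No array of one group reached another group, and WT lay between the mutants. Cd44 fell by 2.07 in Pax5+/- against WT (SE 0.0789, 4.2-fold, limma adjusted p = 4.85e-09). It rose by 0.77 in the double heterozygotes against WT (1.71-fold, adjusted p = 3.91e-05) and was higher by 2.84 there than in Pax5+/- (7.16-fold, adjusted p = 2.63e-10). The Pax5+/- arrays, at 5.68 to 6.09, lay just above the lower quartile of all clusters, which was 5.57 to 5.64 on those arrays. Whether Cd44 was above background in Pax5+/- was not tested, so the 4.2-fold and 7.16-fold values describe signals.

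Each of the Cd44 calls held in all 24 alternative settings of its comparison. With the closest pairs averaged the adjusted p was 0.00297, 0.0423 and 0.00152 in that order. The closest pairs of WT arrays, which were apart by 1.28 for Ccr2 and by -1.25 for Cxcr5 (replicates 1 and 3 minus 2 and 4), were apart by 0.05 for Cd44. The genes that ran closest to Cd44 were Clec2i, a C-type lectin gene (r = 0.989), and Arhgap12 (r = 0.987). Clec2i averaged 9.64 in WT, 7.91 in Pax5+/- and 10.04 in the double heterozygotes. A cluster value does not separate the splice forms of Cd44.

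Itga4 is the alpha chain of VLA-4, which binds Vcam1 and fibronectin and anchors B cell precursors to stroma. WT arrays read 12.78, 11.89, 12.79 and 11.93, Pax5+/- arrays 12.03, 12.46, 12.2 and 12.45, and the double heterozygotes 12.02, 12.13, 12.05 and 12.1. WT replicates 1 and 3 were the highest of all arrays and WT replicates 2 and 4 the lowest. No comparison passed in limma, with -0.06 in Pax5+/- against WT (95% interval -0.49 to 0.36, adjusted p = 0.923), -0.27 in the double heterozygotes against WT (-0.7 to 0.15, adjusted p = 0.52) and -0.21 between the mutants (-0.63 to 0.21, adjusted p = 0.605). The direction in Pax5+/- turned with the pair of arrays used, at 0.54 with replicates 2 and 4 only and -0.67 with replicates 1 and 3 only, and it was 0.08 without WT replicate 1 or 3 and 0.02 without Pax5+/- replicate 1. Its beta partners were called in no comparison either. Itgb1, the chain of VLA-4, read 10.38 to 10.7 in WT, 10.13 to 10.62 in Pax5+/- and 10.31 to 10.49 in the double heterozygotes, and Itgb7 read 6.35 to 6.66 over all arrays.

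Itgal is the alpha chain of LFA-1, which binds Icam1 and Icam2. WT arrays read 9.72, 9.64, 9.7 and 9.72, Pax5+/- arrays 9.6, 9.69, 9.58 and 9.73, and the double heterozygotes 9.4, 9.42, 9.37 and 9.37. The double heterozygotes were below all other arrays, and WT and Pax5+/- overlapped. Itgal fell by 0.31 against WT (SE 0.0451, 1.24-fold, limma adjusted p = 0.000835) and by 0.26 against Pax5+/- (1.2-fold, adjusted p = 0.00223), while Pax5+/- differed from WT by -0.05 (95% interval -0.14 to 0.05, adjusted p = 0.705). Itgb2, the beta chain of LFA-1, was at 8.87 to 8.97 in WT, 8.77 to 8.96 in Pax5+/- and 8.57 to 8.76 in the double heterozygotes. It fell by 0.23 against WT (adjusted p = 0.0208) and by 0.22 against Pax5+/- (adjusted p = 0.0263). Both chains of LFA-1 were thus lower in the double heterozygotes. Averaging the closest pairs ended the calls of Itgal (at adjusted p = 0.157 and 0.2) and those of Itgb2. The kinase gene Fes (r = 0.981) and Rab3gap2 (r = 0.969) ran closest to Itgal.

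Pecam1, an adhesion molecule of endothelial cells, platelets and leukocytes that binds itself at cell contacts, showed the same division of WT arrays as Itga4. WT read 10.44, 9.24, 10.35 and 9.25 in replicates 1 to 4, the Pax5+/- arrays read 10.24, 10.54, 10.31 and 10.56, and the double heterozygotes 9.71, 9.74, 9.79 and 9.77. The double heterozygotes were below every Pax5+/- array (exact two-sided permutation p = 0.0286), while WT reached above and below them. None of the differences was called: 0.59 in Pax5+/- against WT (95% interval 0.07 to 1.12, limma adjusted p = 0.204), -0.07 in the double heterozygotes against WT (-0.59 to 0.46, adjusted p = 0.934) and -0.66 between the mutants (-1.19 to -0.13, adjusted p = 0.118). Between the mutants the difference passed at adjusted p = 0.000224 with only the mutant groups in the fit. The difference in Pax5+/- against WT passed without WT replicate 1 (0.8, adjusted p = 0.0457). Of 8 endothelial markers only Eng, a co-receptor of the TGF-beta family, was called against WT, and none between the mutants (0 at an unadjusted p under 0.05). Eng fell by 2.29 in Pax5+/- and fell by 2.42 in the double heterozygotes (adjusted p = 4.43e-09 and 2.18e-09). Cdh5, the defining cadherin, read 6.39 to 6.65 over all arrays. Of 6 measured megakaryocyte and platelet markers limma called 0 in each comparison, with 1, 0 and 2 at an unadjusted p under 0.05.

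**Figure D2:**
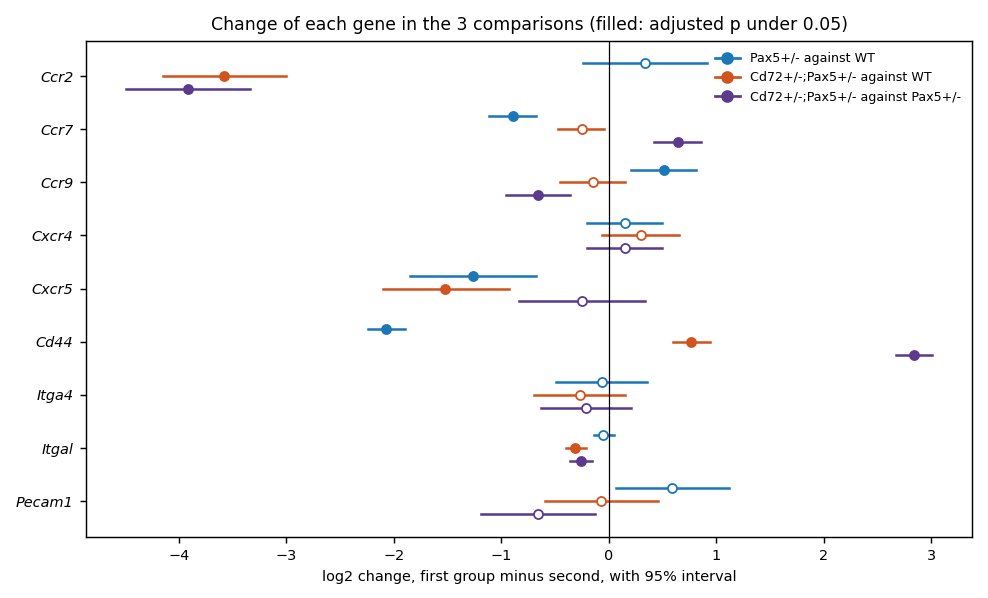
Log2 change of each of the 9 genes in the 3 comparisons (first group minus second) with the 95% interval of the limma fit over 12 arrays; filled points have an adjusted p under 0.05. Cd44 lies at -2.07, 0.77 and 2.84, Ccr2 lies at -3.58 and -3.92 in the comparisons with Cd72+/-;Pax5+/-, and all intervals of Cxcr4 and Itga4 include 0.

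Of the 9 genes, 4 were called in Pax5+/- against WT (Ccr9 higher, and Ccr7, Cxcr5 and Cd44 lower), beside 7.47% of all 23410 clusters tested. In the double heterozygotes against WT 4 were called (Cd44 higher, and Ccr2, Cxcr5 and Itgal lower), beside 7.78% of all clusters. Between the mutants 5 were called (Ccr7 and Cd44 higher in the double heterozygotes, and Ccr2, Ccr9 and Itgal lower), beside 9.79%. By direction, 1 of the genes was called higher and 3 lower in Pax5+/- against WT, beside 4.28% and 3.2% of all clusters. Of the calls in the double heterozygotes against WT 1 was higher and 3 lower, beside 4.12% and 3.66%. Between the mutants 2 were higher and 3 lower, beside 4.44% and 5.35%. Groups did not overlap for 4, 4 and 7 of the genes, beside 10.7%, 14.8% and 18.5% of all clusters. In Pax5+/- against WT these were 1 higher and 3 lower, beside 5.84% and 4.87% of all clusters. Against WT the double heterozygotes had 1 higher and 3 lower, beside 7.61% and 7.23%, and between the mutants 2 higher and 5 lower, beside 9.59% and 8.91%. The study's own threshold, a p under 0.05 with a change of more than 2-fold, was met by 2 genes in each comparison, beside 0.957%, 0.914% and 1.2% of all clusters. These were Cxcr5 and Cd44 in Pax5+/- against WT, Ccr2 and Cxcr5 in the double heterozygotes against WT, and Ccr2 and Cd44 between the mutants. The median size of change, regardless of sign, was 0.51, 0.3 and 0.64 for the 9 genes and 0.0675, 0.07 and 0.075 for all clusters. The genes were chosen with earlier results of these data known, and all clusters include those of low signal. Values set side by side here are thus a description and not a test of the 9 genes as a set. Over the 3 comparisons 6 genes were called at least once, Cd44 in all 3 comparisons and the other 5 in 2, and the comparisons share arrays.

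How far these calls rest on array pairs differed by gene. After averaging of the closest pairs, 1, 2 and 2 of the genes were called in the 3 comparisons, namely Cd44 in each and Ccr2 in both comparisons with the double heterozygotes. All clusters then gave 282, 290 and 420 calls in place of 1749, 1821 and 2292. The WT pairs also differed in the list of pro-B cell markers, with means of 11.82 and 11.86 in replicates 1 and 3 and 10.99 and 10.94 in replicates 2 and 4, and in the list of marrow stroma markers, with 8.34 in both replicates 1 and 3 and 7.84 and 7.83 in replicates 2 and 4. In Pax5+/- the stroma list read 8.01 and 8.06 in replicates 1 and 3 and 7.03 and 7.07 in replicates 2 and 4. In the double heterozygotes it read 6.93 to 7.12. Ccr2, Ccr7, Ccr9, Cxcr4, Itga4 and Pecam1 were higher in WT replicates 1 and 3, where both lists were higher, and Cxcr5 was lower there. The part of these lists in the results was not tested.

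**Figure D3:**
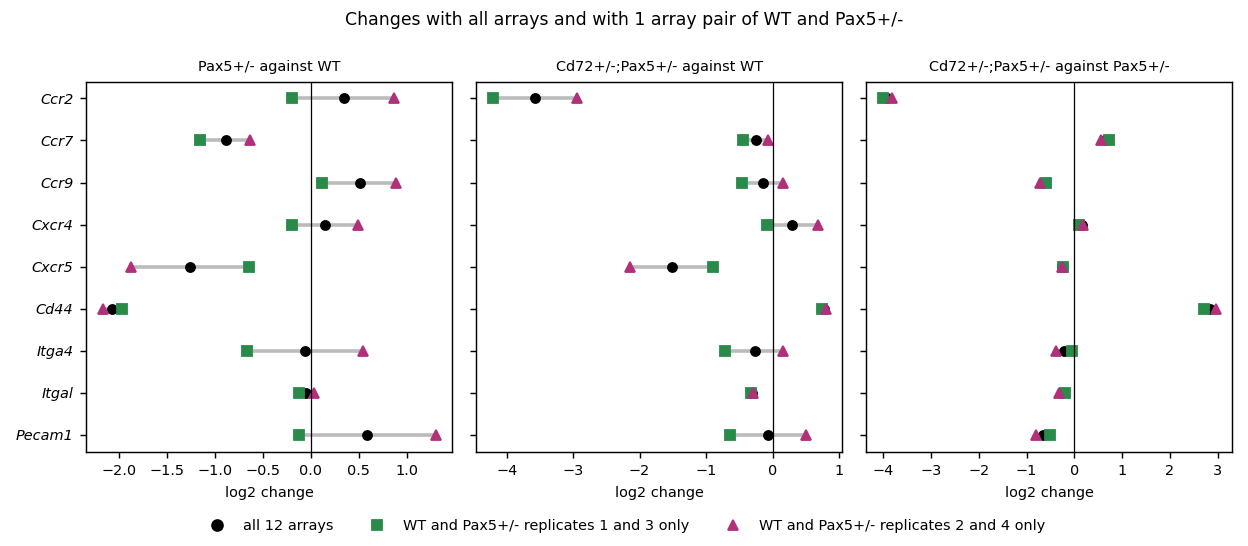
Log2 change of each of the 9 genes in the 3 comparisons with all 12 arrays (circles), with only replicates 1 and 3 of WT and Pax5+/- (squares) and with only replicates 2 and 4 of them (triangles); all arrays of Cd72+/-;Pax5+/- are kept. Cd44 in Pax5+/- against WT stays between -2.17 and -1.97, Cxcr5 there stays below 0, and Itga4 in Pax5+/- against WT runs from -0.67 to 0.54.

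The label of the cells was checked against 14 pro-B cell markers, of which 13 were measured. Their mean lay between 10.94 and 11.86 over all arrays. Vpreb1 and Igll1, the surrogate light chain genes, read 11.95 to 12.79 and 12.49 to 13.33, and the recombinase gene Rag1 read 10.6 to 11.83. Dntt, which adds bases at antibody gene joints in pro-B cells, fell by 2.34 in the double heterozygotes against WT (adjusted p = 0.00515) and fell by 2.12 against Pax5+/- (adjusted p = 0.00809), to 8.29 to 8.85 from 9.76 to 11.93 in WT and 10.54 to 10.82 in Pax5+/-. None of the calls of the pro-B list, those of Dntt among them, held with the closest pairs averaged. Of 9 measured T cell markers (10 listed), 1 rose and 1 fell in Pax5+/- against WT. Limma called 0 in the double heterozygotes against WT (2 at an unadjusted p under 0.05), and 1 was higher and 2 lower between the mutants. Lat, an adaptor of T cell receptor signalling, fell by 0.68 in Pax5+/- (adjusted p = 3.43e-05) and was higher by 0.63 in the double heterozygotes than there (adjusted p = 5.29e-05), and both calls held with the pairs averaged. Those of Cd28, which rose by 0.40 in Pax5+/- (adjusted p = 0.00174), and of Cd5 and Zap70, at -0.36 and -0.24 between the mutants (adjusted p = 0.0217 and 0.0484), did not. Cd3e, a defining T cell marker, read 6.85 to 7.15 over all arrays. In a bulk sample, fewer cells of a type and less RNA per cell cannot be told apart.

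**Figure D4:**
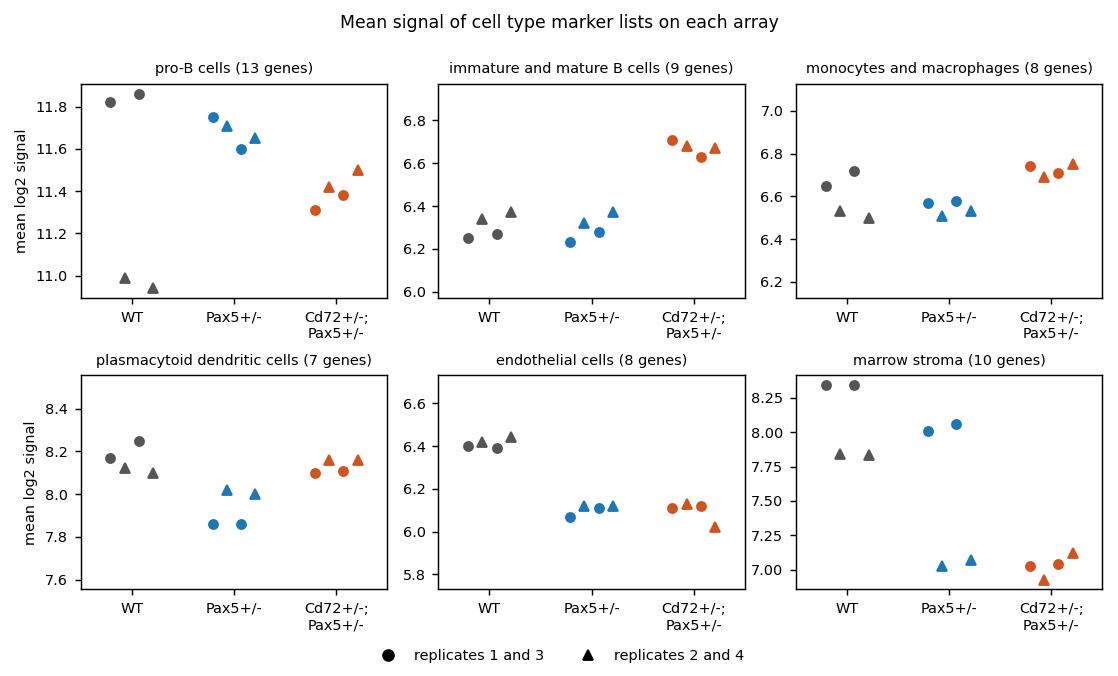
Mean log2 signal of 6 marker lists on each of the 12 arrays, with circles for replicates 1 and 3 and triangles for replicates 2 and 4; each panel has its own vertical range of at least 1 log2 unit. The monocyte list stays within 6.5 to 6.75 over all arrays, the mean of the mature B cell list is highest in Cd72+/-;Pax5+/- at 6.63 to 6.71, and the stroma list separates circles from triangles in WT and Pax5+/-. Of the 9 mature B cell genes, 3 were called higher in Cd72+/-;Pax5+/- than in WT and 6 were not called.

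Beyond the 9 genes, most other chemokine and sphingosine-phosphate receptors gave no call. Of 23 measured (24 listed), 1 fell in Pax5+/- against WT, 2 rose in the double heterozygotes against WT, and 3 rose between the mutants, beside 7.47%, 7.78% and 9.79% of all clusters. The median changes were -0.02, 0.00 and 0.01 beside -0.005, 0.002 and 0.005 for all clusters. S1pr4, a lymphocyte receptor for sphingosine-1-phosphate, fell by 0.28 in Pax5+/- (adjusted p = 0.0409) and was higher by 0.51 in the double heterozygotes than there (adjusted p = 0.000608). S1pr3 rose by 0.76 against WT (adjusted p = 0.00376) and by 1.18 against Pax5+/- (adjusted p = 8.92e-05), from 6.13 to 6.79 in WT to 7.08 to 7.49. Ackr2, which scavenges inflammatory chemokines, rose by 0.49 and 0.56 (adjusted p = 0.000354 and 8.09e-05). None of this list was called with the closest pairs averaged.

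Of 17 measured ligands of the 9 receptors and adhesion molecules (22 listed), limma called 0 in Pax5+/- against WT, where 2 had an unadjusted p under 0.05. In each comparison with the double heterozygotes 2 fell, beside 3.66% and 5.35% of all clusters called lower. The median changes were -0.09, -0.06 and 0.01 in the 3 comparisons. Cxcl12, the ligand of Cxcr4 and a product of stroma, was at 8.16 to 9.00 in WT, 7.17 to 9.25 in Pax5+/- and 6.42 to 6.96 in the double heterozygotes, a fall of 1.92 against WT (adjusted p = 0.0141) and of 1.58 against Pax5+/- (adjusted p = 0.0328). Its arrays followed the stroma list, which holds Cxcl12 itself. In the double heterozygotes against WT, 3 of the 10 stroma genes were called lower (beside 3.66% of all clusters), 9 had an unadjusted p under 0.05, and the median change of the list was -0.95. Of these calls only that of Alpl, a bone and stroma phosphatase gene, held with the closest pairs averaged. Icam2, a ligand of LFA-1, fell by 0.48 against WT (adjusted p = 0.0165) and by 0.85 against Pax5+/- (adjusted p = 0.000219). The genes for the ligands of Ccr7, Ccr9 and Cxcr5 that were measured, Ccl19, Ccl25 and Cxcl13, were not called, at 0.1, 0.15 and -0.03 in the double heterozygotes against WT. No ligand was called with the closest pairs averaged.

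Of 25 integrin chains, 3 rose in Pax5+/- against WT, 1 rose and 3 fell in the double heterozygotes against WT, and 5 fell between the mutants, where 7.47%, 7.78% and 9.79% of all clusters were called in either direction. The medians were 0, -0.01 and -0.03. Itga5, the fibronectin receptor chain, was at 6.62 to 7.23 in WT, 8.61 to 8.79 in Pax5+/- and 7.6 to 7.73 in the double heterozygotes. It rose by 1.78 in Pax5+/- (adjusted p = 5.67e-07), a call that held with the closest pairs averaged, and by 0.76 in the double heterozygotes (adjusted p = 0.000924). Itga9, a chain of another Vcam1-binding integrin, rose by 2.1 in Pax5+/- (adjusted p = 2.29e-05) and was lower by 1.46 in the double heterozygotes than in Pax5+/- (adjusted p = 0.000394). Itgam, the myeloid alpha chain, rose by 0.89 in Pax5+/- (adjusted p = 0.0382), and it was the 1 gene called of 10 granulocyte markers in that comparison. After averaging of the closest pairs no call of the integrin list held other than that of Itga5 in Pax5+/- against WT, so those of Itga9, of Itgam and of Itga5 in the other comparisons ended.

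Of 26 measured adhesion receptors (30 listed), 2 rose and 2 fell in Pax5+/- against WT, 1 rose in the double heterozygotes against WT, and 2 were higher and 2 lower there than in Pax5+/-, beside 7.47%, 7.78% and 9.79% of all clusters. Median changes were -0.01, 0.01 and 0.01. Cd48, the ligand of the lymphocyte receptors Cd2 and Cd244a, fell by 1.75 in Pax5+/- (adjusted p = 0.00018), rose by 0.89 in the double heterozygotes (adjusted p = 0.0224), and was higher by 2.64 there than in Pax5+/- (adjusted p = 4.47e-06). Its arrays read 7.84 to 8.44, 5.97 to 6.89 and 8.72 to 9.37 in WT, Pax5+/- and the double heterozygotes, in the order that Cd44 showed. Bst1, a stroma and lymphocyte surface enzyme, fell by 2.01 in Pax5+/- (adjusted p = 2.37e-05) and was at 9.22 to 9.49 in the double heterozygotes beside 8.78 to 9.73 in WT. Cd93, an adhesion molecule of early B cells, rose by 1.27 (adjusted p = 0.00026) and Cd24a by 0.75 (adjusted p = 0.0193) in Pax5+/-, and both were lower in the double heterozygotes than there. With the closest pairs averaged, Cd48 and Bst1 kept their calls between the mutants and no other call of this list held.

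**Figure D5:**
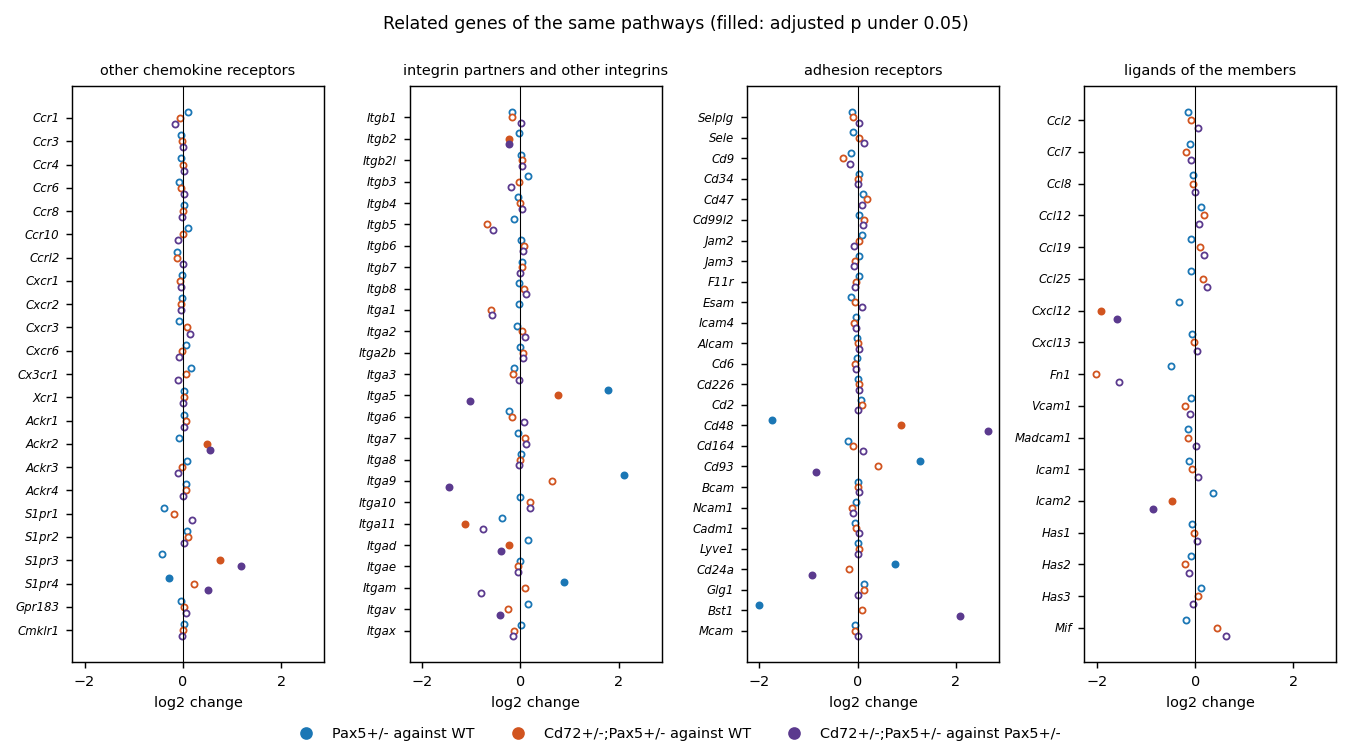
Log2 change of the genes of 4 related lists in the 3 comparisons (first group minus second), with filled points for an adjusted p under 0.05. Most receptors, integrin chains and ligands lie near 0, while Itga5, Itga9, Cd48, Bst1, Cd93, Cxcl12 and a few others lie more than 1 log2 unit away in at least 1 comparison.

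Most genes that carry the signal inside the cell were not called. Of 28 measured genes of chemokine receptor signalling (29 listed), 3 rose and 2 fell in Pax5+/- against WT, 2 rose and 3 fell in the double heterozygotes against WT, and 3 were higher and 2 lower between the mutants, beside 7.47%, 7.78% and 9.79% of all clusters. Their medians were -0.02, 0.01 and 0.04. Pik3r5, a regulatory subunit of the G protein-activated lipid kinase, fell by 0.80 in Pax5+/- (adjusted p = 0.00249), and its catalytic partner Pik3cg fell by 0.51 in the double heterozygotes (adjusted p = 0.0182). Rgs2 and Rgs18, which switch off G proteins, rose by 1.31 (adjusted p = 0.0102) and 0.61 (adjusted p = 0.00395) in Pax5+/-. Rgs1, of the same family, rose by 0.70 in the double heterozygotes against WT (adjusted p = 0.000127), the 1 call of the list that held with the closest pairs averaged. Rgs18 and Rgs1 read 4.88 to 5.12 and 5.0 to 5.17 in WT, below the lower quartile of all clusters. Whether they were above background there was not tested. The small GTPase genes Cdc42 and Rac2, which drive cell movement, fell by 0.28 and 0.27 in the double heterozygotes against WT (adjusted p = 0.00444 and 0.00534).

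Of 23 measured genes of integrin activation (24 listed), 2 fell in Pax5+/- against WT, 1 rose and 1 fell in the double heterozygotes against WT, and 4 were higher and 3 lower between the mutants, beside 7.47%, 7.78% and 9.79% of all clusters. The list's medians were -0.01, 0.01 and 0.02. Ezr and Msn, which tie adhesion receptors such as Cd44 to the actin skeleton, fell by 0.36 and 0.18 in Pax5+/- (adjusted p = 0.0397 and 0.0375). Vcl, the adhesion-site protein vinculin, was higher by 0.26 in the double heterozygotes than in Pax5+/- (adjusted p = 0.00767) and Rasgrp2, an activator of Rap1, by 0.33 (adjusted p = 0.0135). No call of this list held with the closest pairs averaged.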

How the data were processed

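Total RNA of sorted pro-B cells was hybridised to 12 Affymetrix arrays (Mouse Gene 1.0 ST), 1 for each deposited sample. Whether any of these samples share their cells is not given. The log2 signal values deposited by the authors were used as given. Per the series' design text the authors worked with Transcriptome Analysis Console 4.0.3, and how background was corrected and arrays normalized, and on which genome build, is not given in the sources used here. Of 28944 transcript clusters, the 23410 that carry a gene symbol entered the test at any signal. A mean per group was fitted to all 12 arrays with limma 3.58.1 in R 4.3.3 (residual degrees of freedom 9, prior 3.28). Each of 3 contrasts was adjusted over all clusters by Benjamini-Hochberg, with a threshold of 0.05. SDs are over 4 arrays, and SEs are those of the moderated contrast. The number of arrays limits the precision. The fit was tested on simulated data in which arrays varied independently, so that test does not cover the closeness of array pairs. A gene is given by its 1-symbol cluster of highest mean. Members, lists and tests were chosen with earlier results of these data known. From each list, up to 4 called genes with the smallest adjusted p per contrast and up to 2 that did not pass were eligible to be named. Beta-chain partners, defining markers, chromosome 9 neighbours and the ligands Ccl19, Ccl25 and Cxcl13 fall outside that rule and were chosen, with their values known, for their known roles or position. Likeness is Pearson's r over 12 arrays, and the 2 genes closest to each called member are named. Alternatives were quantile normalization, a common median, no dim clusters, all clusters, a trended robust prior, only the compared groups, array weights, closest pairs averaged or as a random block, 1 array pair left out, each array left out, and a gene's clusters averaged. The lists were also counted with the closest pairs averaged, an alternative chosen after seeing the data. Some listed genes were not analysed here.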

Additional observations from a re-analysis of the deposited data

Results flagged for a closer look

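The Cd44 groups moved in opposite directions, with all 4 Pax5+/- arrays below and all 4 Cd72+/-;Pax5+/- arrays above the WT arrays. The difference between the mutants was itself tested and was 2.84 (SE 0.0789, limma adjusted p = 2.63e-10). Within WT, the highest Cd44 array, replicate 3 at 8.08, stood apart from the next at 8.0 by 0.889 of the group's range, above Dixon's 95% critical value for 4 samples. The other arrays of that group lay between 7.99 and 8.0. It was the 1 array set apart among 27 groups of 4 checked at both ends, and chance sets apart about 1 in 20 groups.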

How the results depend on the processing

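No paired analysis was possible because sample numbers in the titles run from 1 to 12 without recurring between groups. Over 24 alternative settings of 27 single-gene changes (648 values), 591 kept direction and side of the threshold, 23 fell below it, 19 passed it and 15 turned direction. Of the 9 genes, 4, 4 and 5 were called in Pax5+/- against WT, in the double heterozygotes (Cd72+/-;Pax5+/-) against WT and between the mutants, and 3 to 5, 4 to 5 and 5 when each array was left out. With only the compared groups 2 were called in Pax5+/- against WT. With the closest pairs averaged the counts were 1, 2 and 2 (282, 290 and 420 of all clusters). The random block left 1133, 1031 and 1398 of all clusters, and array weights gave 2787 in the double heterozygotes against WT. Without replicates 1 and 3 of WT and Pax5+/-, 8 of the 9 genes were called in Pax5+/- against WT and 8 between the mutants (5359, 4427 and 4757 of all clusters). Without replicates 2 and 4, 8 were called in the double heterozygotes against WT (4780 of all clusters, and 4512 between the mutants). These settings leave 1 closest pair in WT and 1 in Pax5+/- and keep all arrays of the double heterozygotes. The spread within WT and Pax5+/- is thus small by construction. In Pax5+/- against WT the direction turned for Cxcr4 (-0.01 with array weights, -0.2 without replicates 2 and 4), Ccr2 (-0.2) and Pecam1 (-0.12) likewise, and for Itga4 (0.54) and Itgal (0.03) without replicates 1 and 3. Itga4 ran from -0.21 to 0.08 when each array was left out. In the double heterozygotes against WT it turned without replicates 1 and 3 for Ccr9 (0.16), Itga4 (0.16) and Pecam1 (0.51), and without replicates 2 and 4 for Cxcr4 (-0.09), and Pecam1 ran from -0.26 to 0.14 over single omissions. None of these main values was called. Beyond the construction of these settings, the cause was not tested.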
